A study of Caenorhabditis elegans with 80 samples.

Results

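The genes described here are dod-3, dod-17, dod-19, dod-20, dod-21, dod-22, dod-23, dod-24 and cld-1, 9 of the 46904 genes counted in RNA from whole Caenorhabditis elegans. They were named one by one, and they were chosen by how their counts moved with age in wild-type worms and in a strain that carries a daf-16 allele. Their differences in those 2 settings are therefore given as a description: calls by the fit over all genes are counted beside the share of all genes called, no p-value is printed for them and nothing is read from them.

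DAF-16 is the worm's FOXO transcription factor. Insulin-like signalling keeps it out of the nucleus, and when signalling falls it enters the nucleus and shifts the expression of genes for stress resistance, metabolism and defence. The name dod stands for downstream of DAF-16, and these genes came out of comparisons of worms with high and low DAF-16 activity. In that earlier work dod-3 was higher when DAF-16 was active, the class I direction, and dod-17 and dod-19 to dod-24 were lower, the class II direction. The name cld-1 stands for CUB-like domain, a secreted-protein domain that is also predicted in the products of dod-17, dod-21, dod-22 and dod-24, and several genes of this family are used as markers of the intestinal response to pathogenic bacteria.

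The older ages were days 8, 11, 14 and 18 of wild-type N2 hermaphrodites, set against day 6 of the same time course, with 6 libraries per age. The CF1038 strain carries daf-16(mu86) and gave 20 libraries at day 6, set against a second set of 30 N2 libraries, also from day 6. All worms were kept at 20 °C on OP50-1 bacteria with streptomycin, and all plates held FUDR, which blocks DNA synthesis and so prevents a new generation. The labels give 1 batch value to every library and do not say which libraries came from separate cultures, so p-values measure the spread between libraries, which may be technical.

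Libraries held 34443138 to 44161452 counts. Levels are given as CPM, counts scaled to a library total of 1000000 after TMM normalization. The daf-16 gene itself averaged 94.1 ± 8.42 CPM over the CF1038 libraries and 165 ± 15.1 CPM over their N2 controls (SD, n = 20 and 30), with no overlap between the libraries. None of 6 intestinal markers (elt-2, ges-1, vha-6, ifb-2, act-5 and ifc-2) was at 0 in a library. Their summed level was 145 to 463 CPM at day 18 and 717 to 1005 CPM at day 6, and 5 of the 6 were lower at day 18 by edgeR's test. At day 14 the sum was 413 to 518 CPM in libraries 4 to 6 and 968 to 1343 CPM in libraries 1 to 3. In CF1038 it ran from 274 to 1060 CPM, with libraries 9 and 11 lowest, and in the second N2 set from 492 to 1128 CPM, with library 11 lowest. At whole-worm level, fewer cells of a type and less RNA per cell cannot be told apart.

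The 9 genes lie in 4 places of the WBcel235 genome. The first is a stretch of chromosome IV that holds 5 of them within 43333 bp: cld-1 (IV:12935011-12936271, minus strand), dod-21 (IV:12936738-12937988, plus strand), dod-24 (IV:12940106-12941354, minus strand), dod-22 (IV:12965374-12967392, plus strand) and dod-17 (IV:12976303-12978343, plus strand). The starts of cld-1 and dod-21 face away from each other across 466 bp, with no other protein-coding gene between them. On chromosome V, dod-19 (V:411782-414759, minus strand) and dod-20 (V:422433-424177, plus strand) are 7673 bp apart with irg-8 and Y39D8A.1 between them. The other two are dod-3 (V:2730622-2731098, minus strand) and dod-23 (II:8398161-8399164, minus strand). All 9 are annotated as protein-coding.

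The authors' counting shared reads between dod-21 and cld-1. Their counts were not whole in 73 of 80 libraries, while the counts of the other 7 genes were whole in every library, and the sum of the pair was whole within 0.02 counts in all 80. How each shared read was divided is an estimate, so the single values of dod-21 and cld-1 are uncertain and their sum is given beside them. No source used here gives the strandedness, so reads from overlapping genes on opposite strands could not be told apart.

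Per kb of exon, dod-19 and dod-23 had the highest levels. At day 6 of the time course dod-19 stood at 241 ± 63.2 CPM per kb and dod-23 at 162 ± 44.04 CPM per kb (SD, n = 6 each), a difference larger than either SD. Then came dod-24 at 39.2 ± 12.8, dod-3 at 16.8 ± 8.82, dod-21 at 11.5 ± 13.3, dod-17 at 10.9 ± 5.44, cld-1 at 5.06 ± 6.23, dod-22 at 2.96 ± 1.41 and dod-20 at 1.36 ± 0.636 CPM per kb. Neighbours in that order from dod-3 down to dod-22 do not differ beyond their SD. At day 18 dod-23 led at 233 ± 87.9 CPM per kb, ahead of dod-19 at 135 ± 53.8 and dod-3 at 66.1 ± 24.2, and cld-1 was last at 0.0794 ± 0.126 CPM per kb (SD, n = 6 each).

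**Figure D1:**
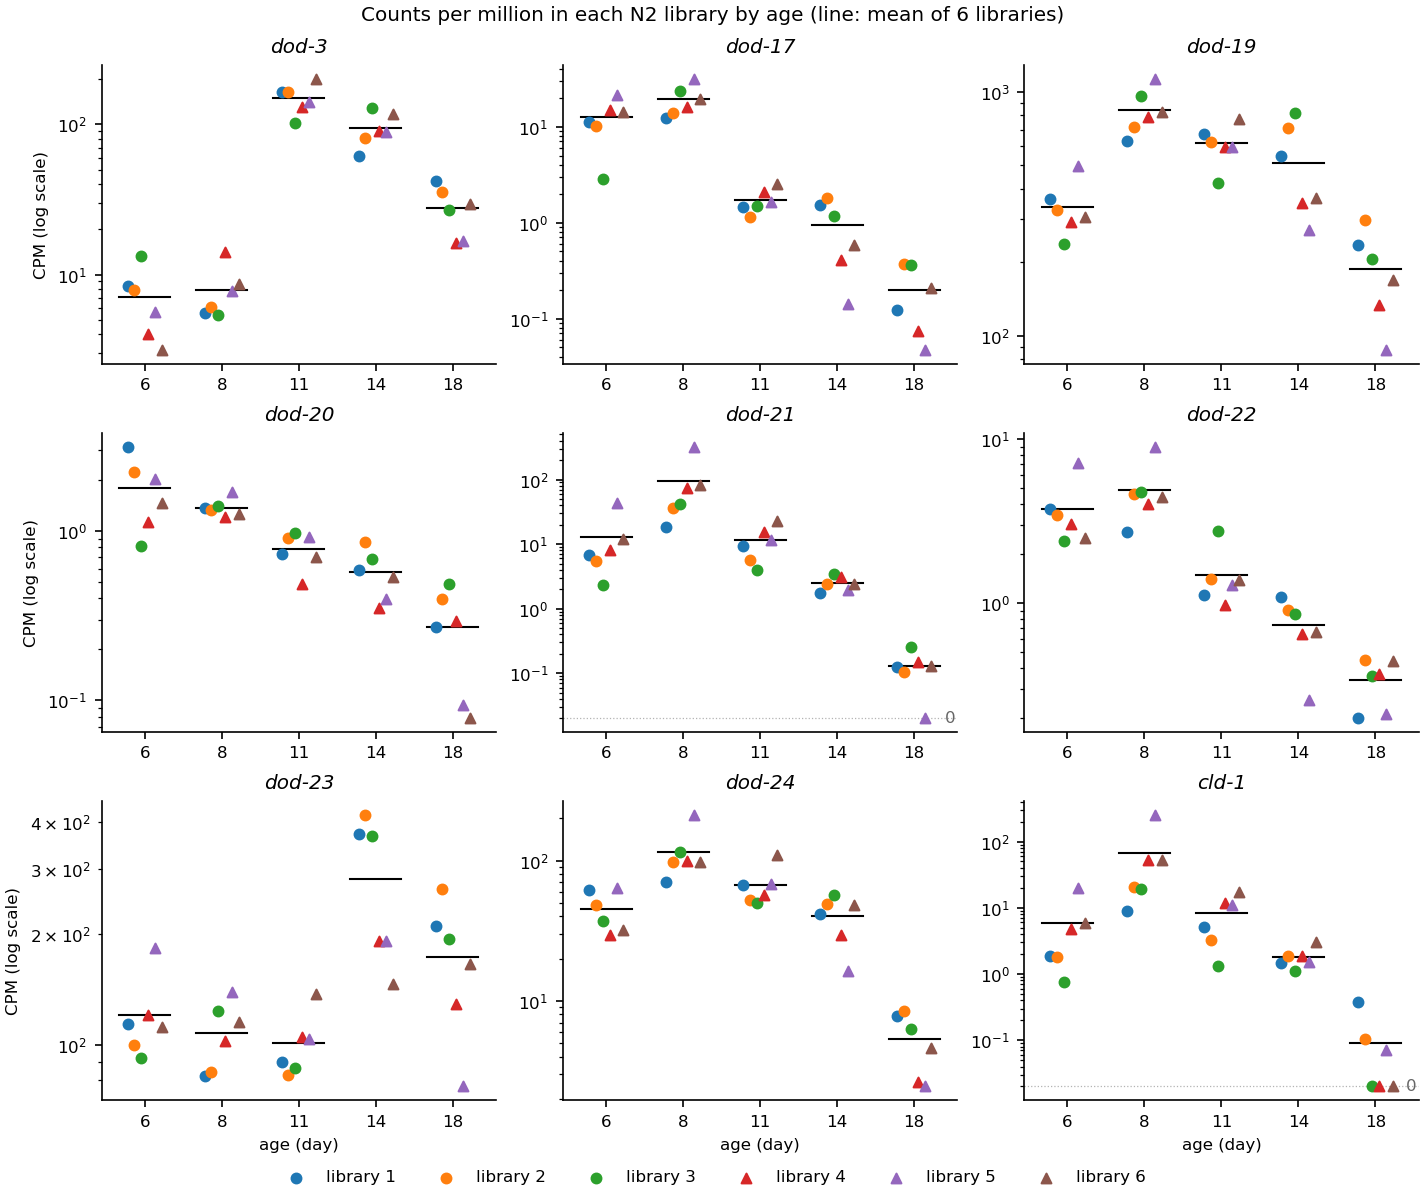
CPM of each gene (log scale) in every N2 library at days 6, 8, 11, 14 and 18. Points are libraries, circles for libraries 1 to 3 and triangles for libraries 4 to 6, the line is the mean of 6, and a count of 0 is drawn on the dotted line. For dod-3, all 6 libraries of days 11, 14 and 18 lie above all 6 of day 6. The share of all genes that separate in this way was not computed. Library 5 is the highest point for dod-21 and cld-1 at days 6 and 8.

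The age courses fell into a few shapes. dod-3 was low at days 6 and 8, reached its highest level at day 11 and was still above day 6 at day 18. dod-19, dod-21, dod-24 and cld-1 had their highest group mean at day 8 and their lowest at day 18. dod-17 and dod-22 had overlapping levels on days 6 and 8 and a lower mean at each later age. dod-20 had a lower mean at each successive age, and dod-23 was highest at day 14.

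All 9 genes passed the filter on low counts, with 16710 genes tested in the time course. Calls rest on edgeR's quasi-likelihood test at an adjusted p under 0.05 over all genes tested. At day 8, 4 genes were called higher than at day 6 and 0 lower, against 5.55 percent of all genes higher and 6.12 percent lower. At day 11, 2 were called higher and 3 lower, against 24.1 percent and 19.9 percent of all genes. At day 14, 3 were called higher and 4 lower, against 29.8 percent and 26.9 percent, and at day 18, 1 was called higher and 7 lower, against 29 percent and 28 percent. The genes were selected on these contrasts, so nothing is read from the counts. The median log2 fold change of the 9 was 0.65 at day 8, -0.19 at day 11, -1.65 at day 14 and -3.08 at day 18, beside -0.02, 0.03, 0.01 and -0.01 over all genes. The 4 ages share their day 6 libraries.

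**Figure D2:**
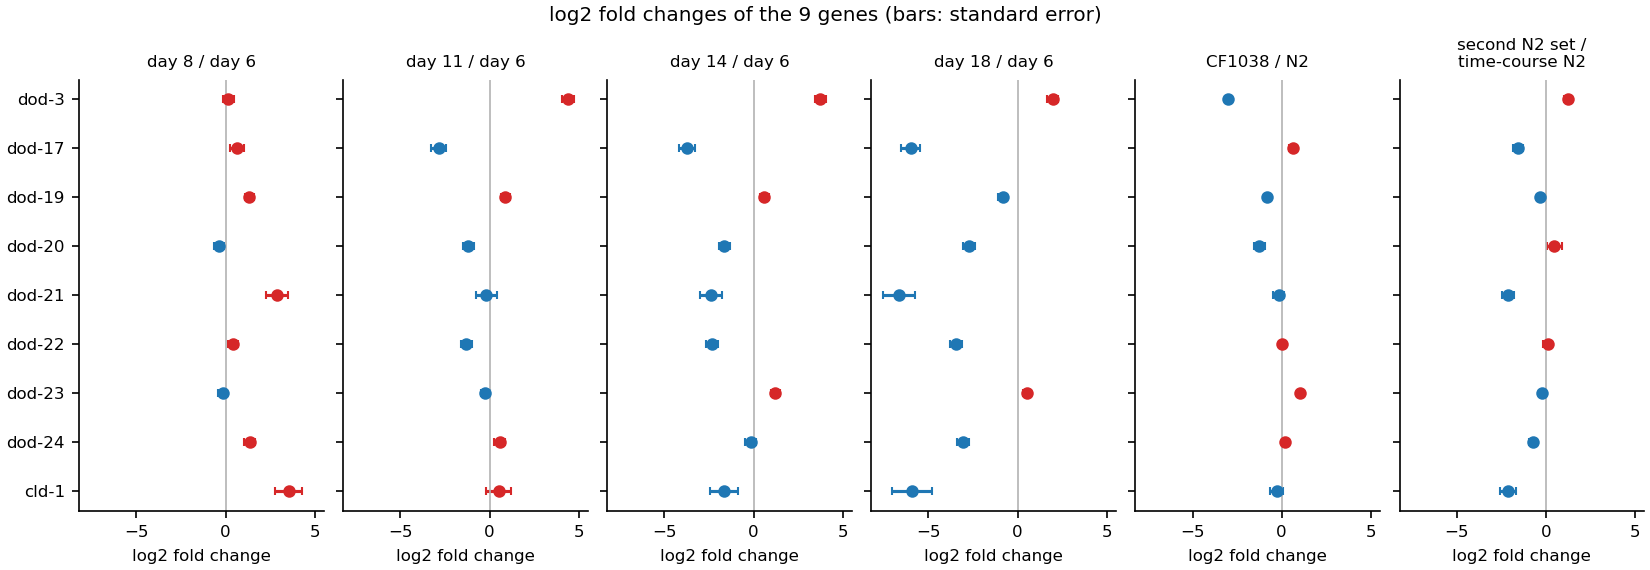
log2 fold changes (horizontal axis) of the 9 genes (rows) in 6 comparisons, the group named first over the second, with bars for the standard error. Red marks a positive and blue a negative value. dod-3 is positive at days 11, 14 and 18 and negative in CF1038, while dod-17, dod-21 and cld-1 are at or below -5.93 at day 18.

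dod-3, the class I gene of the set, was furthest from its day 6 level at day 11. Its libraries ran from 3.14 to 13.4 CPM at day 6 (median 6.74), from 5.36 to 14.1 CPM at day 8 (median 6.92) and from 102 to 201 CPM at day 11 (median 152). At day 14 they ran from 61.4 to 128 CPM (median 89.5) and at day 18 from 16.3 to 41.9 CPM (median 28.1). The libraries of days 6 and 8 overlap, and those of each later age lie wholly above day 6. The log2 fold changes against day 6 were 4.41 (SE 0.33) at day 11, 3.74 (SE 0.32) at day 14 and 1.97 (SE 0.30) at day 18. With all 36 N2 day 6 libraries as the baseline they were 3.31, 2.65 and 0.87, and dod-3 was higher in the second N2 set than at day 6 of the time course. The day 8 value was 0.16 and not called, but it was -0.91 and called lower with that larger baseline, and 1.27 and called higher with libraries 4 to 6 of the time course alone.

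dod-21 and cld-1 had their highest levels at day 8 and were close to the counting floor at day 18. dod-21 ran from 2.36 to 43.4 CPM at day 6 (median 7.48), 18.1 to 320 CPM at day 8 (median 58.8), 3.95 to 22.6 CPM at day 11 (median 10.6), 1.73 to 3.43 CPM at day 14 (median 2.40) and 0 to 0.255 CPM at day 18 (median 0.127). cld-1 ran from 0.744 to 19.9 CPM at day 6 (median 3.29), 8.89 to 251 CPM at day 8 (median 36.3), 1.32 to 17.1 CPM at day 11 (median 8.11), 1.13 to 3.09 CPM at day 14 (median 1.68) and 0 to 0.372 CPM at day 18 (median 0.0351). For both genes the day 8 and day 6 ranges overlap, and at day 18 every library lies below every day 6 library.

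At day 18, dod-21 had 0 to 10 counts per library and cld-1 had 0 to 15. A count of 0 allows up to 3 counts, which is 0.0702 CPM for dod-21 in library 5 and 0.0738 to 0.0783 CPM for cld-1 in libraries 3, 4 and 6; such limits cover counting error only. The log2 fold change at day 18 was -6.66 (SE 0.89) for dod-21 and -5.93 (SE 1.11) for cld-1, and -6.42 (SE 0.91) for their summed counts. These fitted values rest on few counts at day 18 and moved with single libraries: dod-21 stood at -5.76 without day 6 library 5, and cld-1 at -4.98 without that library and at -7.23 without day 18 library 1. Libraries 1 to 3 alone gave -4.89 for dod-21 and -3.15 for cld-1, and libraries 4 to 6 alone gave -7.83 and -8.52. At day 11 the values were -0.19 (SE 0.58) for dod-21 and 0.51 (SE 0.72) for cld-1, and 0.71 and 1.46 without day 6 library 5. At day 14 they were -2.38 (SE 0.63) and -1.67 (SE 0.77), and -1.48 and -0.72 without that library. The day 14 value of cld-1 was not called, but was called without day 6 library 1, 2 or 3 or day 8 library 5, and with libraries 4 to 6 alone (-2.25). Libraries 1 to 3 alone gave -0.96 for dod-21 at day 14, which was not called. Against all 36 N2 day 6 libraries, dod-21 stood at 4.37 at day 8, 1.299 at day 11 (then called higher), -0.88 at day 14 (not called) and -5.17 at day 18. cld-1 stood at 5.03, 1.996 (then called higher), -0.17 and -4.44 at the same ages. The sum of the pair was 0.0702 to 0.496 CPM at day 18 and 3.10 to 63.3 CPM at day 6.

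A single library carried much of the day 8 level. Library 5 at day 8 held 320 CPM of dod-21 and 251 CPM of cld-1, where the next libraries held 81.5 and 52.4 CPM. The mean of day 8 was 95.7 ± 112 CPM for dod-21 and 67.4 ± 91.9 CPM for cld-1 (SD, n = 6), and without library 5 it was 50.8 and 30.6 CPM. The log2 fold change over day 6 was 2.87 (SE 0.61) for dod-21 and 3.54 (SE 0.77) for cld-1. Without day 8 library 5 it was 1.97 and 2.40, and without day 6 library 5, which was also the highest of its age, it was 3.77 and 4.49. Libraries 4 to 6 alone gave 2.91 for dod-21, which was not called. All 6 day 8 libraries lay above the day 6 median for both genes. The intestinal marker sum of day 8 library 5 was 1197 CPM, within the 1051 to 1261 CPM of its age.

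**Figure D3:**
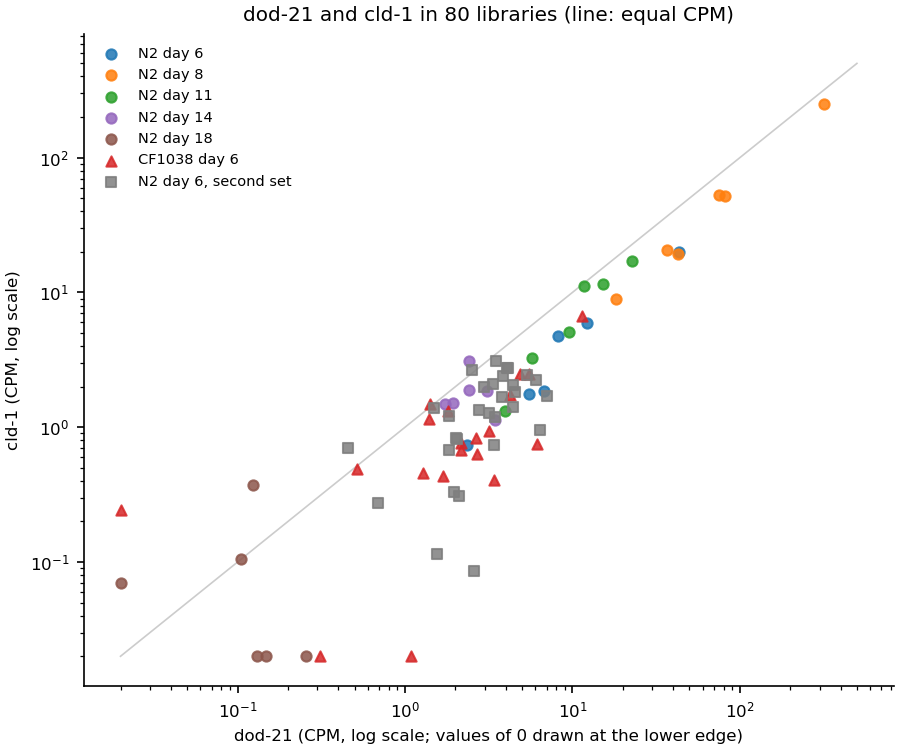
cld-1 (vertical axis) against dod-21 (horizontal axis), both in CPM on log scales, for 80 libraries, 1 point each, coloured by group, with values of 0 at the lower edge of each axis and a line at equal CPM. Day 8 library 5 lies highest, at 320 CPM of dod-21 and 251 CPM of cld-1, and every day 18 library has at most 0.255 CPM of dod-21.

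The share of cld-1 in the summed counts of the pair had a median of 27.9 percent at day 6, 37.4 percent at day 8, 39.7 percent at day 11 and 43.8 percent at day 14. It spanned 21.6 to 36.5 percent of the sum at day 6 and 31.1 to 44.01 percent at day 8. The ranges of days 8, 11 and 14 overlap each other, and each overlaps that of day 6. At day 18 the sum is too small for a share to be read.

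dod-24, a gene of the same cluster that is widely used as an infection response gene, also had its highest mean at day 8. It ran from 29.7 to 63.6 CPM at day 6 (median 42.6), 70.1 to 211 CPM at day 8 (median 98.7), 49.7 to 109 CPM at day 11 (median 62.2), 16.43 to 56.9 CPM at day 14 (median 44.7) and 2.46 to 8.404 CPM at day 18 (median 5.43). Every day 8 library lies above every day 6 library, days 11 and 14 overlap day 6, and every day 18 library lies below. The log2 fold change was 1.35 (SE 0.31) at day 8 and -3.08 (SE 0.34) at day 18. Without library 5 the day 8 value was 1.09, and with libraries 4 to 6 alone it was 1.72 and not called. Against all 36 N2 day 6 libraries it was 1.93, and the day 11 value was 1.14 and called higher, where 0.57 (SE 0.31) against day 6 of the time course was not.

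dod-17, at the far end of the cluster, was low from day 11 onward. It ran from 2.85 to 21.6 CPM at day 6 (median 12.7), 12.4 to 31.5 CPM at day 8 (median 17.7), 1.14 to 2.51 CPM at day 11 (median 1.57), 0.141 to 1.80 CPM at day 14 (median 0.883) and 0.0468 to 0.369 CPM at day 18 (median 0.166). Days 11, 14 and 18 lie wholly below day 6, and library 3 was lowest at day 6. The log2 fold changes were -2.86 (SE 0.42) at day 11, -3.73 (SE 0.45) at day 14 and -5.98 (SE 0.53) at day 18. At day 14, libraries 1 to 3 held 1.18 to 1.80 CPM and libraries 4 to 6 held 0.141 to 0.587 CPM, and fits on each set of libraries alone gave -2.42 and -5.50. Against all 36 N2 day 6 libraries the values were 1.82 at day 8 (called higher, where 0.65 against the time course was not), -1.70 at day 11, -2.55 at day 14 and -4.83 at day 18.

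dod-22, also a response gene for bacterial infection, had overlapping ranges at days 8 and 6 and lower means thereafter. Its libraries ran from 2.41 to 7.18 CPM at day 6 (median 3.24), 2.73 to 8.95 CPM at day 8 (median 4.53), 0.971 to 2.74 CPM at day 11 (median 1.34), 0.258 to 1.09 CPM at day 14 (median 0.764) and 0.198 to 0.448 CPM at day 18 (median 0.363). Library 5 was highest at days 6 and 8 and library 3 at day 11, where its 2.74 CPM reached into the day 6 range, while days 14 and 18 lie wholly below it. The log2 fold changes against day 6 were -1.31 (SE 0.30) at day 11, -2.33 (SE 0.32) at day 14 and -3.45 (SE 0.35) at day 18.

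On chromosome V, dod-19 was the most abundant of the genes per kb of exon at days 6, 8 and 11. It ran from 236 to 495 CPM at day 6 (median 316), 625 to 1130 CPM at day 8 (median 807), 424 to 776 CPM at day 11 (median 608), 270 to 818 CPM at day 14 (median 457) and 87.1 to 298 CPM at day 18 (median 188). Every day 8 library lies above every day 6 library, and the other ages overlap day 6. The log2 fold changes were 1.32 (SE 0.26), 0.87 (SE 0.25), 0.60 (SE 0.25) and -0.84 (SE 0.25) at days 8, 11, 14 and 18. The day 14 value was split by library number: 547 to 818 CPM in libraries 1 to 3 against 270 to 367 CPM in libraries 4 to 6, with log2 fold changes of 1.15 and -0.15 in fits on each set alone. The day 14 call was lost in 8 of 30 fits that left out 1 library, namely day 14 library 1, 2 or 3 or any day 6 library but 5, and in the fit with no filter on low counts (0.62). At day 18 libraries 1 to 3 alone gave -0.33, which was not called, and libraries 4 to 6 alone gave -1.50. The intestinal marker sum was split the same way, and its part in the result was not tested.

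dod-20, its neighbour, was the least abundant of the 9 per kb up to day 14. It ran from 0.819 to 3.14 CPM at day 6 (median 1.75), 1.20 to 1.70 CPM at day 8 (median 1.35), 0.486 to 0.976 CPM at day 11 (median 0.818), 0.350 to 0.865 CPM at day 14 (median 0.562) and 0.0783 to 0.485 CPM at day 18 (median 0.284). Only the day 18 libraries of this gene lie wholly below day 6. The log2 fold changes were -1.19 (SE 0.30) at day 11, -1.65 (SE 0.30) at day 14 and -2.73 (SE 0.33) at day 18.

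dod-23, listed as class II, had its highest mean at day 14. It ran from 91.9 to 183 CPM at day 6 (median 112), 82.0 to 139 CPM at day 8 (median 109), 82.9 to 137 CPM at day 11 (median 96.7), 146 to 419 CPM at day 14 (median 279) and 77.1 to 264 CPM at day 18 (median 179). The ranges of all 4 later ages overlap day 6. The log2 fold change was 1.23 (SE 0.25) at day 14 and 0.53 (SE 0.25) at day 18, which was called only without day 18 library 5 or day 6 library 5 among the fits that left out 1 library. At day 14 libraries 1 to 3 held 367 to 419 CPM and libraries 4 to 6 held 146 to 191 CPM, and fits on each set alone gave 1.91 and 0.34. The day 14 call was lost with libraries 4 to 6 alone. At day 18 the same fits gave 1.12, then called higher, and -0.17, and the day 18 value was also called with DESeq2 (0.54) and against all 36 N2 day 6 libraries (0.72).

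The day 18 values stand beside a lower intestinal marker sum, 300.2 ± 141 CPM at day 18 and 905 ± 109 CPM at day 6 (SD, n = 6 each). That sum was lowest at day 18 in libraries 4 to 6 (145 to 206 CPM, against 396 to 463 CPM in libraries 1 to 3). There dod-19, dod-24 and dod-23 were also lower than in libraries 1 to 3. The ranges of dod-3, dod-17, dod-20, dod-21, dod-22 and cld-1 overlapped between these sets of libraries. Markers of other tissues were lower too: all 4 of body wall muscle (summed level 468 ± 117 CPM at day 18 and 1734 ± 384 CPM at day 6) and 3 of 4 of the hypodermis (511 ± 168 CPM at day 18 and 1446 ± 219.7 CPM at day 6). Of 5 germline and oocyte markers 2 were lower, of 4 neuronal markers 1 was higher and 1 lower, and 0 of 3 pharyngeal markers tested passed. All 5 sperm markers tested were higher at day 18 (summed level 294 ± 98.6 CPM at day 18 and 5.64 ± 1.20 CPM at day 6). Of all genes tested, 29 percent were higher and 28 percent lower at day 18. The part of these marker changes in the results was not tested.

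**Figure D4:**
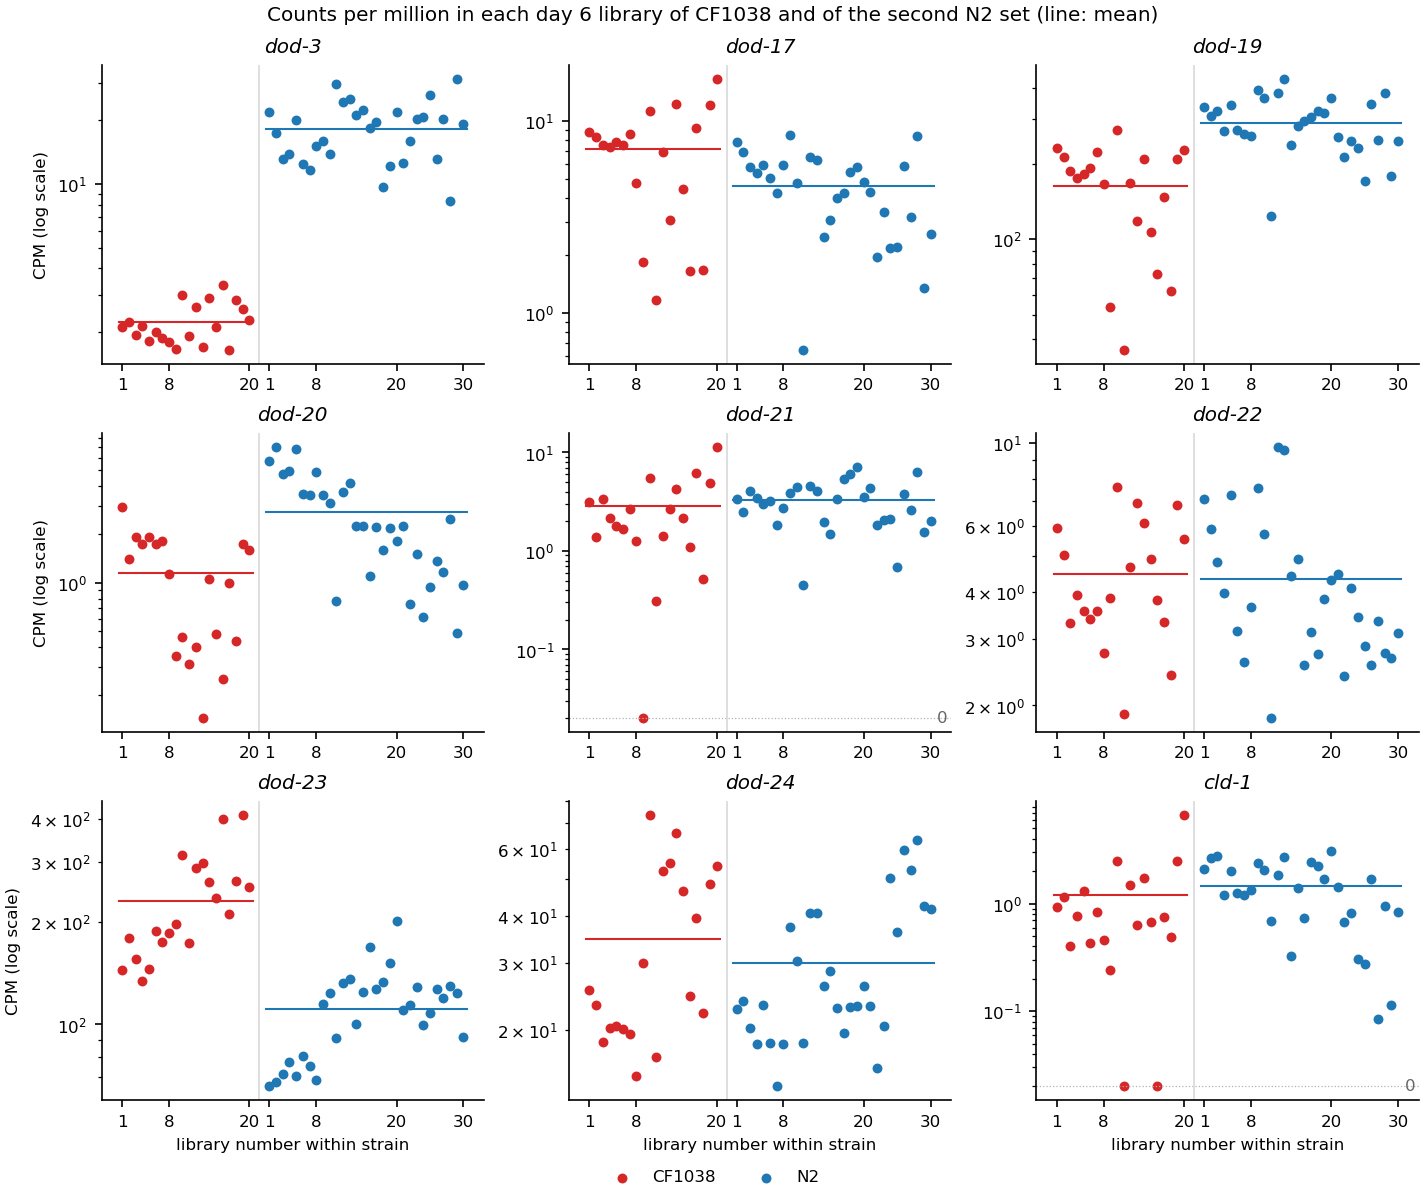
CPM of each gene (log scale) in the 20 CF1038 libraries (red, left) and the 30 libraries of the second N2 set (blue, right) by library number, with a line at the mean and a count of 0 on the dotted line. All CF1038 libraries of dod-3 lie below all N2 libraries, and all CF1038 libraries of dod-23 lie above the N2 median of 115 CPM.

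CF1038 was compared with the second N2 set to ask how the daf-16(mu86) allele bears on these genes. Of the 9 genes, 2 were called higher in CF1038 (dod-17 and dod-23) and 3 lower (dod-3, dod-19 and dod-20), against 18 percent of the 16126 genes tested higher and 20.7 percent lower. The median log2 fold change of the 9 was -0.17, beside -0.01 over all genes. Again nothing is read from these values, since the strain contrast was in view when the genes were chosen. Among markers of other cell types, 4 of 5 of sperm and 3 of 5 of the germline and oocyte were higher in CF1038, and 2 of 4 of neurons, 2 of 4 of the pharynx, 1 of 4 of body wall muscle and 3 of 6 of the intestine were lower; their part in the results was not tested. The sperm marker sum was 8.30 ± 2.57 CPM in CF1038 and 5.39 ± 1.37 CPM in N2 (SD, n = 20 and 30). Of the 7 class II genes, dod-17 and dod-23 were called higher, the direction that class predicts for lower DAF-16 activity. dod-19 and dod-20 were called in the other direction. The dod-17 call was lost in several fits given below, and nothing is read from this tally either.

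dod-3 had 1.64 to 3.35 CPM in CF1038 (median 2.12) and 8.30 to 31.4 CPM in N2 (median 18.8). The libraries do not overlap, and the log2 fold change was -3.04 (SE 0.13). It stayed between -3.09 and -2.88 in the fits that used other N2 libraries or parts of both strains.

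dod-23 had 134 to 412 CPM in CF1038 (median 204) and 65.8 to 201 CPM in N2 (median 115), and 10 of 20 CF1038 libraries lay above every N2 library. The log2 fold change was 1.05 (SE 0.12). Both strains were lower in libraries 1 to 8, a split seen in the data: 134 to 188 CPM in CF1038 libraries 1 to 8 and 174 to 412 CPM in 9 to 20, 65.8 to 81.1 CPM in N2 libraries 1 to 8 and 91.4 to 201 CPM in 9 to 20. Within libraries 1 to 8 the log2 fold change was 1.21 and within libraries 9 to 20 it was 1.04.

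dod-19 had 36.1 to 271 CPM in CF1038 (median 178) and 123 to 435 CPM in N2 (median 289). All 20 CF1038 libraries lay below the N2 median, although the ranges overlap, and the log2 fold change was -0.84 (SE 0.16). The lowest CF1038 libraries were 11 and 9 at 36.1 and 53.5 CPM, and the lowest N2 library was 11 at 123 CPM. These were also the libraries with the lowest intestinal marker sums of their strains, 274 and 295 CPM in CF1038 and 492 CPM in N2, and the part of this in the result was not tested. Against N2 libraries 21 to 30 only, the value was -0.63 and no longer called.

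dod-20 had 0.144 to 2.97 CPM in CF1038 (median 1.10) and 0.489 to 6.997 CPM in N2 (median 2.27), a log2 fold change of -1.26 (SE 0.30). The level differed by library number in both strains, a split seen in the data. CF1038 libraries 1 to 8 had a median of 1.78 CPM and libraries 9 to 20 one of 0.447 CPM, and the N2 medians were 4.95, 2.25 and 1.07 CPM in libraries 1 to 8, 9 to 20 and 21 to 30. Within libraries 1 to 8 the log2 fold change was -1.45 and within 9 to 20 it was -1.80, while against N2 libraries 21 to 30 only it was -0.14 and not called.

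dod-17 had 1.18 to 16.6 CPM in CF1038 (median 7.53) and 0.643 to 8.50 CPM in N2 (median 4.78), and 13 of 20 CF1038 libraries lay above the N2 median. Its log2 fold change of 0.63 (SE 0.23) was no longer called against N2 libraries 1 to 20 (0.48), against N2 libraries 21 to 30 (1.02), against all 36 N2 libraries (0.24), within libraries 9 to 20 of each strain (0.54), or without CF1038 library 10 (0.58) or 19 (0.57). CF1038 libraries 1 to 8 lay between 4.77 and 8.82 CPM, and libraries 9 to 20 spanned 1.18 to 16.6 CPM.

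The remaining 4 genes were not called with all libraries of both strains. dod-21 had 0 to 11.4 CPM in CF1038 (median 2.16) and 0.455 to 7.08 CPM in N2 (median 3.28). cld-1 had 0 to 6.66 CPM in CF1038 (median 0.761) and 0.0854 to 3.11 CPM in N2 (median 1.37). Counts of 0 stood in CF1038 library 9 for dod-21 and libraries 11 and 16 for cld-1, which allow up to 0.0814, 0.0721 and 0.0762 CPM. CF1038 library 20 was the highest of its strain for both, and the log2 fold change of their summed counts was -0.20 (SE 0.29). dod-22 had 1.90 to 7.63 CPM in CF1038 (median 3.89) and 1.85 to 9.74 CPM in N2 (median 3.75), a log2 fold change of 0.04 (SE 0.17). dod-24 had 15.1 to 73.7 CPM in CF1038 (median 24.99) and 14.2 to 63.3 CPM in N2 (median 23.5), a log2 fold change of 0.20 (SE 0.19). These 4 genes overlap widely between the strains, and dod-24 was split by library number, with medians of 20.1 CPM in CF1038 libraries 1 to 8 and 47.5 CPM in 9 to 20, and of 19.3, 26.1 and 42.02 CPM in N2 libraries 1 to 8, 9 to 20 and 21 to 30. dod-24 was called higher in CF1038 within libraries 9 to 20 of each strain, at 0.65, and against N2 libraries 1 to 20, at 0.49, and within libraries 1 to 8 cld-1 was called lower, at -1.16.

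The second N2 set was also compared with the N2 day 6 libraries of the time course. The choice of the genes did not name this contrast, although its libraries are those of the other comparisons. The labels give both sets the same strain, age and batch. Of the 9 genes, 5 were called in either direction, against 18.8 percent of the 16703 genes tested. Of these, 4 fell in the second set, against 6.51 percent of all genes lower. Both N2 sets were references in the contrasts used to choose the genes. The contrast is therefore not independent of that choice. No p-value is printed for the 9 genes here, and nothing is read from these counts or calls. dod-3 was the gene that rose, with a log2 fold change of 1.25 (SE 0.24). It had 8.15 to 30.6 CPM in the second set (median 18.4) and 3.38 to 14.4 CPM in the time course (median 7.25). All 30 second-set libraries lay above the time-course median.

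dod-17 fell to 0.643 to 8.55 CPM in the second set (median 4.73), against 3.07 to 22.99 CPM in the time course (median 13.7). Its log2 fold change was -1.55 (SE 0.29). dod-21 fell to 0.455 to 7.04 CPM (median 3.24), against 2.53 to 46.2 CPM in the time course (median 8.07), and its log2 fold change was -2.11 (SE 0.34). All 30 second-set libraries lay below the time-course median for both genes. cld-1 had 0.0840 to 3.05 CPM in the second set (median 1.36) and 0.7996 to 21.2 CPM in the time course (median 3.53), again with all 30 below the median. It fell by 2.11 on the log2 scale (SE 0.43), and the summed counts of dod-21 and cld-1 also fell by 2.11 (SE 0.34). Time-course library 5 weighed on these values: without it the log2 fold change was -1.22 for dod-21, and -1.17 for cld-1, which then was no longer called. With second-set libraries 1 to 6 only, chosen after seeing the data, dod-17 stood at -1.13 and dod-21 at -2.09, both still called, and cld-1 at -1.64 and not called.

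dod-24 had 14.2 to 62.2 CPM in the second set (median 23.2) and 31.7 to 67.7 CPM in the time course (median 46.01). It fell by 0.72 on the log2 scale (SE 0.24), with 26 of 30 second-set libraries below the time-course median. It was called lower, and the call was lost without time-course library 1, 2 or 5. The other genes were not called with all 30 libraries of the second set. They stood at -0.33 (SE 0.16) for dod-19, 0.49 (SE 0.43) for dod-20, 0.11 (SE 0.27) for dod-22 and -0.23 (SE 0.17) for dod-23. With second-set libraries 1 to 6 only, dod-20 was called higher at 1.49 and dod-23 lower at -0.83.

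**Figure D5:**
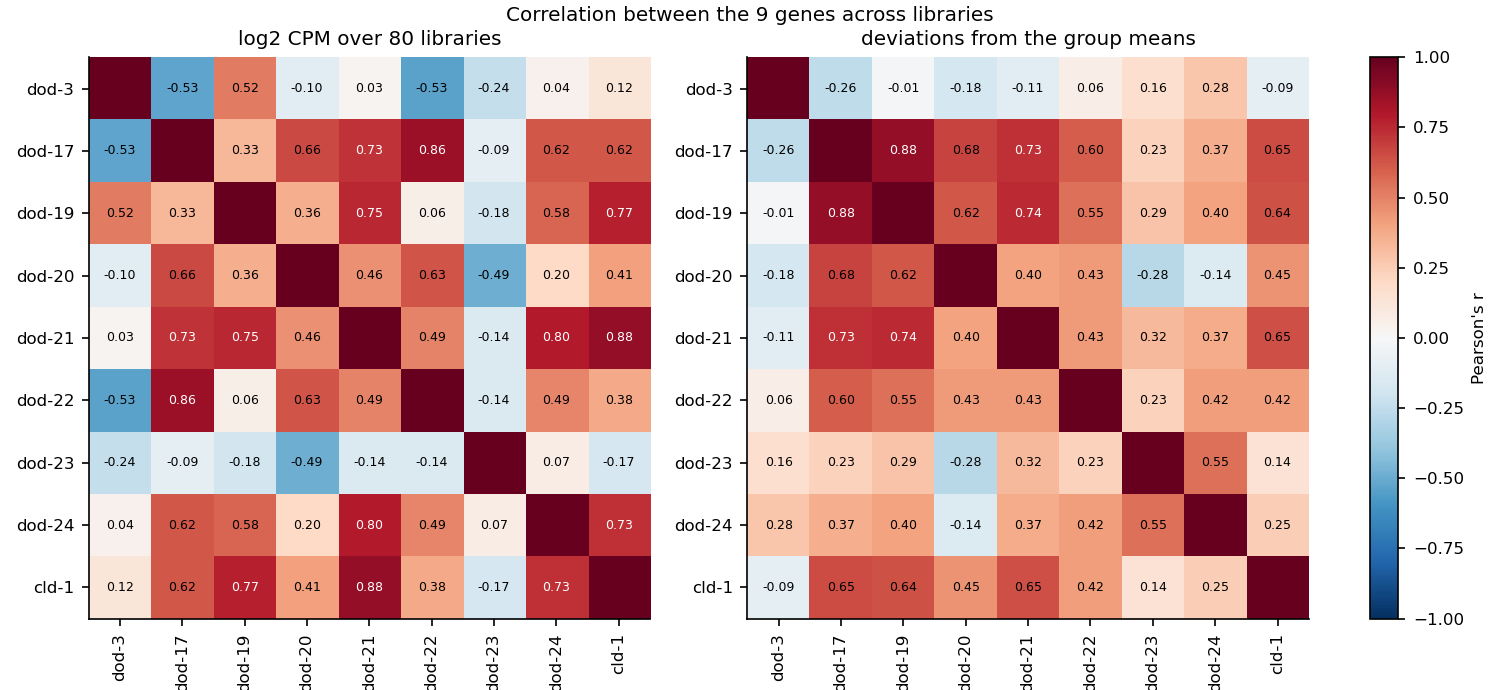
Pearson's r between the 9 genes (rows and columns) across 80 libraries, on log2 CPM (left) and on deviations of log2 CPM from the group means (right), on a colour scale from -1 to 1. On the right, dod-17 and dod-19 reach 0.88 and the values for dod-3 lie between -0.26 and 0.28.

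Within groups, dod-17 and dod-19 were high or low in much the same libraries. On deviations from the group means over 80 libraries, which share depth and culture conditions, r was 0.88 between dod-17 and dod-19, which lie on different chromosomes. It was 0.74 between dod-19 and dod-21, 0.73 between dod-17 and dod-21 and 0.68 between dod-17 and dod-20. For cld-1 it was 0.65 with dod-17, 0.65 with dod-21, a pair whose reads are shared, and 0.64 with dod-19. dod-23 had its highest value with dod-24, at 0.55, and dod-3 also had its highest with dod-24, at 0.28. On log2 CPM over all libraries, which includes the age differences, the highest values were 0.88 for dod-21 and cld-1, 0.86 for dod-17 and dod-22 and 0.80 for dod-21 and dod-24.

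Among 13429 genes with a mean of at least 1 CPM, those most like each of the 9 on log2 CPM over 80 libraries were as follows. For dod-3 they were the collagen gene col-183 and the acyl-CoA synthetase gene acs-12 (r of 0.91 each). For dod-17 they were the acid phosphatase gene pho-13 (0.93) and F58G6.3 (0.92), and for dod-19 C34H4.1 (0.94) and D2007.1 (0.93). For dod-22 they were F55G11.2 (0.92), which lies 52 bp from it, and C32H11.4 (0.92), and for dod-24 irg-3 (0.89) and Y43C5A.2 (0.89). For dod-21 they were K08D8.4 (0.89) and cld-1 (0.88), for cld-1 dod-21 (0.88) and hpo-6 (0.82), and for dod-20 Y73F4A.2 (0.89) and K03B8.6 (0.89). dod-23 had no gene above 0.72, the value of K08D10.14, ahead of Y47G6A.22 (0.71).

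On deviations from the group means the nearest genes changed. For dod-19 they were its genomic neighbour irg-8 (0.95) and hpo-6 (0.93), for dod-17 cld-9 (0.91) and the lipase gene lips-5 (0.90), and for dod-20 the collagen gene col-149 and the glutathione S-transferase gene gst-38 (0.90 each). For dod-23 they were F52E1.14 (0.85) and Y40H7A.10 (0.85), for dod-24 the aspartyl protease gene asp-13 (0.81) and ZK1320.3 (0.80), and for dod-21 K08D8.4 and irg-8 (0.78 each). Values were lower for cld-1 (Y48E1B.8 and nas-3, 0.69 each), dod-22 (pcp-4 at 0.67 and F55G11.4 at 0.66) and dod-3 (T19D7.6 at 0.59 and T28F4.5 at 0.58).

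The genes next to the 9 were listed by position, up to 3 protein-coding genes on each side within 20 kb. Of 35 neighbours, 16 were counted deeply enough to be tested in the time course. At day 8, 4 rose and 0 fell, and at day 11, 2 rose and 6 fell. At day 14, 7 rose and 6 fell, and at day 18, 4 rose and 9 fell. Of all genes tested, 5.55 percent were higher and 6.12 percent lower at day 8, and 24.1 and 19.9 percent at day 11. The shares were 29.8 and 26.9 percent at day 14, and 29 and 28 percent at day 18. The median log2 fold change of the neighbours at day 18 was -1.57, beside -0.01 over all genes. At day 18 the smallest adjusted p belonged to F55G11.8, 728 bp from dod-22, which fell to 0.175 ± 0.128 CPM at day 18, against 9.36 ± 2.15 CPM at day 6 (log2 -5.71, SE 0.34, edgeR adjusted p = 2.25e-15). F55G11.2, on the other side of dod-22, fell by 7.22 on the log2 scale (SE 0.47, edgeR adjusted p = 1.38e-14).

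Y39D8A.1, between dod-19 and dod-20, fell by 4.12 (SE 0.25, edgeR adjusted p = 4.42e-15), and K10D11.2, next to dod-17, fell by 3.54 (SE 0.32, edgeR adjusted p = 3.55e-11). Not every gene of the chromosome IV stretch had a lower level at day 18: F55G11.1, which lies between dod-24 and dod-22 and was picked after its values were seen, rose by 0.69 on the log2 scale at day 18 (SE 0.23, edgeR adjusted p = 0.0113).

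In CF1038, 2 of 16 tested neighbours rose and 2 fell, against 18 percent of all genes higher and 20.7 percent lower. F55G11.4, 699 bp from dod-17, fell to 35.8 ± 7.80 CPM in CF1038, against 66.0 ± 18.1 CPM in N2 (log2 -0.88, SE 0.11, edgeR adjusted p = 1.75e-09). Y39D8A.1 fell by 0.50 (SE 0.15, edgeR adjusted p = 0.00566), while K10D11.3 rose by 0.38 (SE 0.09, edgeR adjusted p = 0.001) and K10D11.6 by 0.26 (SE 0.09, edgeR adjusted p = 0.0211). dod-17 and dod-22, which flank F55G11.4 and F55G11.2, stood at log2 fold changes of 0.63 and 0.04 in the same fit.

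Other genes of the pathway give the setting for these values. The shares of all genes called at each age, given above with the neighbours, apply to the lists below too. The class I, class II and infection response lists were chosen with earlier results of these data known. Their counts and p-values are therefore not independent tests. Of 29 further class I genes, 27 were tested, and 15 fell and 1 rose in CF1038. Of all genes, 20.7 percent were lower and 18 percent higher in CF1038. The class I genes that fell include sod-3, a mitochondrial superoxide dismutase (log2 -2.79, SE 0.15, edgeR adjusted p = 2.56e-22), the ferritin gene ftn-1 (-2.95, SE 0.17, edgeR adjusted p = 4.26e-20) and nnt-1, a mitochondrial transhydrogenase (-2.40, SE 0.15, edgeR adjusted p = 4.56e-19). dod-3 stood at -3.04 in the same fit. The median over the class I list was -0.62 in CF1038, beside -0.01 over all genes. In the time course the list did not keep 1 direction: 1 rose and 4 fell at day 8 (median -0.20), 12 rose and 2 fell at day 11 (0.59), and 11 rose and 4 fell at day 14 (0.38). At day 18, where dod-3 stood at 1.97, 5 of the list rose and 12 fell (median -0.34), with the lysozyme gene lys-7 at 2.61 (SE 0.26, edgeR adjusted p = 8.38e-10), the saposin-like gene spp-12 at 6.64 (SE 0.70, edgeR adjusted p = 3.11e-09) and cdr-2 at -1.73 (SE 0.23, edgeR adjusted p = 1.64e-07).

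Of 8 further class II genes, 2 rose and 1 fell in CF1038, against 18 percent of all genes higher and 20.7 percent lower. The median log2 fold change of the class II list was 0.07. The deoxyribonuclease gene nuc-1 rose by 0.40 (SE 0.06, edgeR adjusted p = 2.06e-07) and the insulin-like peptide gene ins-7 by 0.62 (SE 0.25, edgeR adjusted p = 0.0412), while the guanylyl cyclase gene gcy-6 fell by 0.65 (SE 0.18, edgeR adjusted p = 0.00448). Of 7 tested in the time course, 0 passed at day 8, 2 rose and 0 fell at day 11, 3 rose and 0 fell at day 14, and 1 rose and 3 fell at day 18. ins-7 rose by 2.92 (SE 0.31, edgeR adjusted p = 1.94e-09), and the yolk protein gene vit-2 and the intestinal peptide transporter gene pept-1 fell by 1.12 (SE 0.20, edgeR adjusted p = 1.38e-05) and 1.20 (SE 0.26, edgeR adjusted p = 0.000236).

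The infection response list held 20 genes outside the 9. On it 4 rose and 2 fell at day 8 (median log2 fold change 0.63), 7 rose and 2 fell at day 11 (0.45), 6 rose and 2 fell at day 14 (0.37), and 5 rose and 12 fell at day 18 (-1.57). irg-8, between dod-19 and dod-20 and so also counted among the neighbours, fell by 3.75 (SE 0.36, edgeR adjusted p = 6.25e-10), the C-type lectin gene clec-85 fell by 2.80 (SE 0.32, edgeR adjusted p = 1.06e-08), and the lysozyme gene ilys-3 rose by 2.28 (SE 0.28, edgeR adjusted p = 3.54e-08). In CF1038, 12 fell and 1 rose, with a median of -0.45, against 20.7 percent of all genes lower and 18 percent higher. With all N2 libraries of the second set, the lowest was ilys-3 at -3.41 (SE 0.40, edgeR adjusted p = 1.73e-09), followed in adjusted p by the lysozyme gene lys-2 at -1.24 (SE 0.23, edgeR adjusted p = 3.61e-05) and irg-4 at -1.49 (SE 0.31, edgeR adjusted p = 0.000142). Against N2 libraries 21 to 30 only, 4 of the list were called lower, and the share of all genes is not given for that fit. Intestinal markers were lower too in CF1038, 3 of 6 by the same test, and their part in these counts was not tested.

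The 2 other dod genes, dod-6 and dod-18, moved in different directions at days 11 and 14, and both fell at day 18. dod-6 rose by 0.79 at day 11 (SE 0.23, edgeR adjusted p = 0.00757) and by 0.96 at day 14 (SE 0.24, edgeR adjusted p = 0.00107), and fell by 1.08 at day 18 (SE 0.24, edgeR adjusted p = 0.000298) and by 0.59 in CF1038 (SE 0.11, edgeR adjusted p = 1.29e-05). dod-18 fell by 0.53 at day 11 (SE 0.10, edgeR adjusted p = 0.000129), by 0.74 at day 14 (SE 0.10, edgeR adjusted p = 5.07e-07) and by 0.39 at day 18 (SE 0.10, edgeR adjusted p = 0.00184) and did not pass the test in CF1038 at 0.20 (SE 0.08, edgeR adjusted p = 0.0502).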

How the data were processed

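RNA from whole worms was sequenced as paired 150-nt reads in 80 libraries. The authors deposited expected counts per gene for 46904 genes. Per the submitters' processing notes the tools named were FastQC, STAR 2.7.11b and RSEM 1.3.3, and strandedness was not given in any source used. Fractional values made up 2.73 percent of the table, and every value was rounded to a whole count. RSEM divides reads that match several genes, which makes dod-21 and cld-1 uncertain singly.

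Low counts were filtered with filterByExpr, libraries were scaled by TMM and genes were tested with edgeR 4.0.16 (quasi-likelihood test, robust, R 4.3.3), with Benjamini-Hochberg adjustment over all genes tested and a threshold of 0.05. A standard error is the absolute log2 fold change over the square root of F. The 30 time-course libraries, the 50 libraries of CF1038 and the second N2 set, and the 36 N2 day 6 libraries were fitted apart, so CPM differ slightly between fits. The procedure was tested on simulated data. Levels per kb use the union of exons. Likeness is Pearson's r of log2 CPM (prior count 2).

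The 9 genes and the lists were chosen with earlier results of these data known. By rule, the 3 genes per list with the smallest adjusted p at day 18 and in CF1038 are named, 4 of the neighbours, and the 2 most alike genes per measure. Alternatives were DESeq2 1.42.0, RLE scaling, no filter, a replicate block, subsets of libraries and leaving out single libraries. Splits at library 8 and 20, second-set libraries 1 to 6, day 8 without library 5 and the summed pair were chosen after seeing the data.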

Additional observations from a re-analysis of the deposited data

Results flagged for a closer look

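In 45 groups of 6 libraries (9 genes at 5 ages), the highest or lowest library was set against the others by Dixon's ratio, and 11 groups had a library that stood apart on the CPM scale. Chance gives about 1 in 20 groups only where values are normally spread, which was not checked on the CPM scale. The genes were also chosen with these libraries in view and share libraries, so nothing is read from the count. On log2 CPM 1 of the 11 remained, dod-22 at day 11.

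Library 5 of day 8 stood apart for dod-21 (320 CPM), cld-1 (251 CPM), dod-24 (211 CPM) and dod-22 (8.95 CPM). Library 5 of day 6 stood apart for dod-21 (43.4 CPM), cld-1 (19.9 CPM), dod-23 (183 CPM) and dod-22 (7.18 CPM). The values of dod-21 and cld-1 are not independent, since their reads are shared. The remaining 3 were dod-22 in library 3 of day 11 (2.74 CPM), dod-24 in library 6 of day 11 (109 CPM) and cld-1 in library 1 of day 18 (0.372 CPM, 15 counts).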

How the results depend on the processing

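Counts of the 9 genes called moved as follows, with small moves left out. The share of all genes called is not given for these fits or for those of the lists below. A moved count may therefore follow a change over all genes, and nothing is read from it. With all 36 N2 day 6 libraries as the baseline, 1 was lower at day 8 (0 in the reported fit), 5 were higher at day 11 (2) and 2 at day 18 (1), and 1 was higher in CF1038 (2). DESeq2 and time-course libraries 1 to 3 alone also gave 2 higher at day 18, and libraries 4 to 6 alone gave 1 higher at day 14 (3). Against N2 libraries 21 to 30, CF1038 had 1 higher (2) and 1 lower (3). In the second N2 set the replicate block gave 3 higher (1) and 2 lower (4): dod-20 (1.56) and dod-22 (0.46) were then higher and dod-23 (-0.80) lower, and dod-17 (-0.97), dod-21 (-1.54) and cld-1 (-1.03) were not called. Its libraries 1 to 6 gave 2 higher. In CF1038 the block gave dod-24 higher (0.37), cld-1 lower (-0.96) and dod-17 not called (0.34), and at day 14 dod-19 not called (0.55). Leaving out single libraries gave 1 to 2 higher at day 18, 1 to 2 higher in CF1038 and 2 to 4 lower in the second set. dod-19 at day 14 reversed to -0.15 with libraries 4 to 6 only. The cause of these changes was not tested.

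Of the lists, all 36 N2 day 6 libraries gave 5 class II genes lower at day 18 (3), 14 neighbours lower (9), 1 other dod gene lower (2) and 1 neighbour higher in CF1038 (2). In CF1038, N2 libraries 21 to 30 alone gave 0 class II genes lower (1), 0 infection response genes higher (1) and 4 lower (12), and 0 neighbours higher (2). N2 libraries 1 to 20 alone gave 2 class II genes lower, 2 infection response genes higher, 4 neighbours lower (2) and 1 other dod gene higher (0). DESeq2 gave 2 class II genes lower, 2 infection response genes higher and 1 other dod gene higher, and RLE scaling gave the last 2 as well. Libraries 1 to 8 gave 2 class I genes higher (1), 3 class II genes lower, 2 infection response genes higher, 1 neighbour higher, 4 neighbours lower and 1 other dod gene higher. Libraries 9 to 20 gave 4 class II genes higher (2), 2 infection response genes higher and 1 other dod gene higher. No filter gave 1 class II gene higher. The replicate block gave 3 class II genes lower, 6 neighbours lower and 1 other dod gene higher. Libraries 4 to 6 gave 1 neighbour higher at day 18 (4). Leaving out single libraries in CF1038 gave 1 to 2 class II genes higher, 1 to 2 lower, 1 to 2 infection response genes higher, 2 to 4 neighbours lower and 0 to 1 other dod gene higher.

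Replicate numbers were not taken as pairs, because the labels do not say what a number marks and r between same-numbered libraries was above 0.1 in some pairs only: 16 of 60 over ages (median 0.05), 15 of 20 over strains (median 0.27) and 2 of 6 over the N2 sets (median 0.03). As a hint from the data, a library correlated best with its own number in 21 of 120, 8 of 40 and 1 of 12 cases. Motif counts in promoters and protein identity were not run. RLE scaling moved the median of all genes by at most 0.022 (log2). Depth limits dod-21 and cld-1 at day 18, at 0 to 15 counts.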
